A study of Mus musculus with 4 samples.

Results

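The 8 genes described here encode proteins of central myelin: Mbp, Mobp, Mog, Mag, Cnp, Mal, Cldn11 and Opalin. They were chosen by name and found by Ensembl ID among the 55422 gene IDs of the deposited count tables, and all 8 were found. They were followed through single-nucleus RNA sequencing of the hippocampus of adult mice, in 2 Control libraries and 2 Kat6a-cKO libraries made with the 10x Genomics Chromium kit. Control mice carried the floxed allele, Kat6a-f/f, which Cre can delete, and no Cre. Kat6a-cKO mice carried the same floxed Kat6a together with NEX-cre, a Cre recombinase placed at Neurod6, which is active in excitatory neurons of the forebrain. Both groups thus shared the floxed allele, and oligodendrocytes are not the cells to which this Cre is directed. Kat6a encodes a histone acetyltransferase. The labels do not say whether each library came from 1 animal, so p-values measure the spread between libraries only.

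Myelin is the multilayered membrane that oligodendrocytes wrap around axons. Oligodendrocyte precursors divide and migrate, pass through a committed premyelinating stage, and then switch on the myelin protein genes as they mature. MBP compacts the cytoplasmic faces of the membrane, and its mRNA is carried out into the myelin sheath and translated there. MOBP is a small basic protein of compact myelin whose mRNA is also found far from the cell body. CNP, an enzyme bound to membrane and cytoskeleton, keeps cytoplasmic channels open in the sheath. MAG sits on the innermost membrane and binds the axon, while MOG lies on the outermost surface. CLDN11 forms the tight junctions between the wraps, MAL is a lipid raft proteolipid of membrane sorting, and OPALIN is a transmembrane glycoprotein of oligodendrocytes. The Mbp locus is also known to give rise to the longer golli transcripts, which are found outside oligodendrocytes, neurons included, and which counts per gene do not separate from the myelin transcripts.

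Total counts were 186897245, 183440076, 177249737 and 171323466 in Control 1, Control 2, Kat6a-cKO 1 and Kat6a-cKO 2, the order used for all values by library. Barcodes with at least 1000 unique molecular identifiers (UMIs) numbered 43592, and 41744 remained as nuclei after predicted doublets were removed. Pairs of libraries shared 27 to 35 barcodes, at most 0.343% of a library. Nuclei were clustered without the 8 genes and without 45 other myelin-related genes, and clusters were named from markers of their cell type. By this naming 3715 nuclei were oligodendrocyte-like (1005, 867, 1071 and 772), 211 committed precursor-like and 1075 precursor-like. Each name rested on markers other than the members, among them Prr5l and Hapln2 for oligodendrocytes, Gpr17 and Enpp6 for committed precursors and Pdgfra for precursors. In oligodendrocytes the 31 oligodendrocyte markers summed to between 16016 and 16935 counts per 1000000 (CPM), and the 12 precursor markers to between 167 and 211 CPM. Barcodes of 100 to 900 UMIs, 70816 to 73544 per library, were taken as droplets with free RNA and no nucleus. Kat6a itself, counted over the whole gene, was 93.4, 95.1, 87.9 and 88.3 CPM in dentate granule neurons and 164, 190, 161 and 185 CPM in oligodendrocytes. A count over the whole gene does not show the loss of floxed exons, so it does not check the genotype.

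All 8 genes are protein-coding in GENCODE release M21 on GRCm38, and the deposited counts are per gene, not per exon. Mbp is the longest of them, at 110.492 kb, and overlaps Rpl21-ps8, a processed pseudogene of the minus strand. Mobp lies on the plus strand of chromosome 9 (120149707 to 120181484) and overlaps Gm38642, a noncoding transcript of the same strand. Mog lies on the minus strand of chromosome 17 (37010743 to 37023398) and overlaps Gm22388, a small noncoding RNA gene of the plus strand. Cnp lies on the plus strand of chromosome 11 (100574904 to 100591729) and overlaps Dnajc7 of the minus strand. Mag (chromosome 7, 30899176 to 30914873, minus strand), Mal (chromosome 2, 127633226 to 127656695, minus strand), Cldn11 (chromosome 3, 31149920 to 31164324, plus strand) and Opalin (chromosome 19, 41061710 to 41077113, minus strand) overlap no other annotated gene. Whether the counting used strand is not given in the sources used here. Reads of Mbp, Mog, Cnp and Mobp therefore cannot be told apart from those of their overlapping partners.

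The 250 bases before the RefSeq start were searched for motifs, and those outside the GENCODE gene are shown for 4 members. In committed precursors Cnp was near its oligodendrocyte level and Mal was farthest below it, and Mobp and Mog lay between. The letters are from RefSeq on GRCm38.p6, 5′ to 3′ on the strand of the gene, with matches in capitals. Motifs of 2 transcription factor families of the lineage were searched on both strands. The SOX core was searched as ACAAAG. The letters for MYRF, a factor that switches on myelin genes, were CTGGCAC, with a second spelling that has the inner letter changed, CTGGTAC. The last 35 bases of the Cnp and Mobp windows lie inside the GENCODE gene, hold no match and are left off, so that 215 are shown. The stretches shown are chr11:100574689-100574903 (plus strand) for Cnp, chr2:127656696-127656945 (minus strand) for Mal, chr9:120149492-120149706 (plus strand) for Mobp and chr17:37023399-37023648 (minus strand) for Mog.
Cnp: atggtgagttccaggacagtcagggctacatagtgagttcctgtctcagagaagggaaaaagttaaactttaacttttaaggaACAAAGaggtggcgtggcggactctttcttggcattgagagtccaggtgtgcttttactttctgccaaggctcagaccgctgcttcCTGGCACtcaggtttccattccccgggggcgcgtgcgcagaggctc
Mal: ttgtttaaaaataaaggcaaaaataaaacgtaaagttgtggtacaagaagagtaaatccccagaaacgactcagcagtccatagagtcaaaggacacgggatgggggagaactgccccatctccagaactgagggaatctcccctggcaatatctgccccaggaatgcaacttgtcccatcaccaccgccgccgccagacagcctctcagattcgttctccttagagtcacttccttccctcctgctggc
Mobp: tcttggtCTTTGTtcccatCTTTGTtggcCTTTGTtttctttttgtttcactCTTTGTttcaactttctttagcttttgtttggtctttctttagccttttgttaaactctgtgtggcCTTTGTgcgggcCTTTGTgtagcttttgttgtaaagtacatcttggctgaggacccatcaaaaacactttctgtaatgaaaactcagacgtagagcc
Mog: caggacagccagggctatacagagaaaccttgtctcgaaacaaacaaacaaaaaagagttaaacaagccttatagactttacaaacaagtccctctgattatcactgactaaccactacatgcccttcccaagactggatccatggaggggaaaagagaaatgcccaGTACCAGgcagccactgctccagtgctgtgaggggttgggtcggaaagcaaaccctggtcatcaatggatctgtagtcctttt

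The Mobp window held 6 matches to the SOX core, all written as CTTTGT. The Cnp window held 1 match of each kind, the Mog window 1 match to the MYRF letters, and the Mal window none. Of the other members, Opalin (1 window) had 1 SOX match, Cldn11 (1 window) had none, and 2 of the 3 windows of Mag, which overlap and share the same letters, had 1 of each. Over all 32851 windows of the same length, 16.5% held the SOX core and 5.93% the MYRF letters. The matches are a description of these letters. Windows were looked up for 7 of the 8 members, and no window of Mbp was used.

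Of the nucleus classes, oligodendrocytes held 7 of the 8 genes at the highest mean level, and Cnp averaged higher in committed precursors. Mbp stood at 2475, 2237, 2506 and 2170 CPM and Mobp at 2894, 2931, 3183 and 3064 CPM. Both genes thus varied little between libraries, and their Control and Kat6a-cKO values lay close together. For Mobp both Kat6a-cKO libraries lay above both Control libraries. Mog was 696, 622, 651 and 608 CPM, and Opalin 280, 288, 290 and 264 CPM. Mag was 516, 491, 382 and 452 CPM. Mal was 679, 746, 474 and 622 CPM. For Mag and Mal neither Kat6a-cKO library reached the lower of the Control libraries, and Kat6a-cKO 1 was the lowest. Cnp was 193, 240, 150 and 180 CPM, again with no overlap and the Kat6a-cKO values lower. Of all genes with at least 40 counts in oligodendrocytes, 19.5% lay below in this way, and the share above was not computed. Cldn11 was 472, 433, 408 and 436 CPM, with overlapping groups.

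Most oligodendrocyte nuclei carried several of the 8 genes at once. The median nucleus had UMIs of 6 members in each library, and 0 to 0.130% of nuclei had none. Thinned to 1000 UMIs per nucleus, between 86.5% and 89.6% had at least 1 UMI of Mobp and between 83.5% and 86.9% of Mbp (98.4% to 99.0% and 98.2% to 98.9% before thinning). For Cnp the thinned share was 13.2% to 20.4%. The same thinned shares in dentate granule neurons, which make no myelin, were 0.404% to 0.620% for Mobp and 0.881% to 1.36% for Cnp. Oligodendrocyte nuclei were shallow, with median UMIs of 3686, 3437, 3104 and 3155, and Mbp averaged higher in deeper nuclei while Cnp stayed within its spread. Mbp averaged 1750.5 ± 146 CPM (SD over the 4 libraries) in the 157 nuclei of 1000 to 2000 UMIs, 1964 ± 142 CPM in the 2550 of 2000 to 4000, and 2951 ± 265 CPM in the 1008 above that. Cnp was 192 ± 70.6, 176 ± 31.8 and 210 ± 48.4 CPM in the same order. Mobp, Mal and Cldn11 also had their averages in the order of depth, and Mog, Mag and Opalin were lowest in the middle range.

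**Figure D1:**
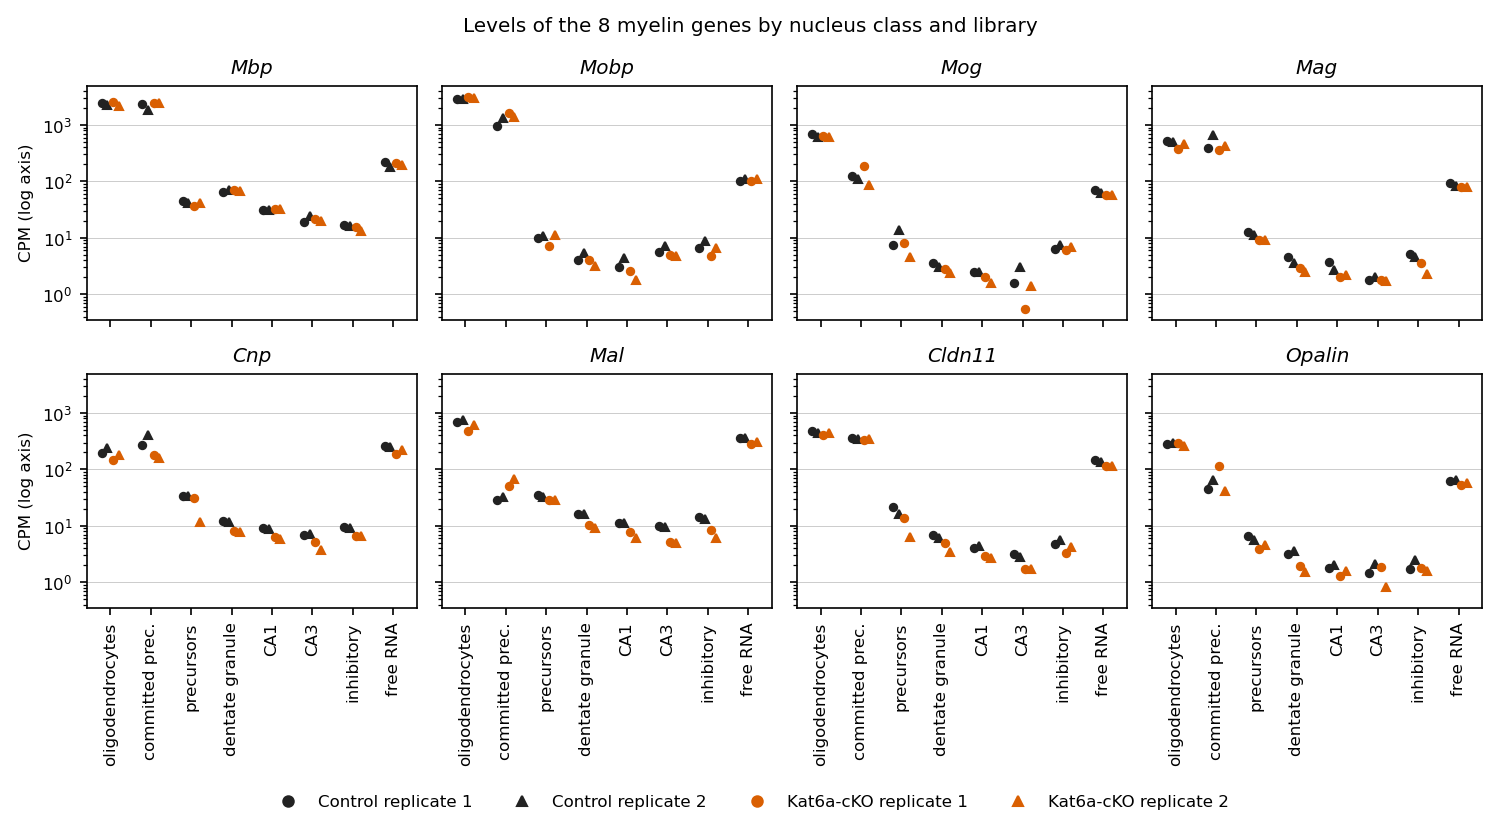
CPM of each member (log axis) in 7 nucleus classes and in free RNA, 1 point per library, black for Control and orange for Kat6a-cKO. Among nucleus classes oligodendrocytes stand highest on average for every gene but Cnp, and free RNA lies above every neuron class and the precursors. Cnp is higher in free RNA than in oligodendrocytes in all 4 libraries, and Mbp in dentate granule neurons stands above Mbp in precursors.

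The committed precursors were a small group between precursors and oligodendrocytes. By their mean over nuclei they separated the members into genes near the oligodendrocyte level and genes far below it. Oligodendrocyte markers summed there to between 6143 and 7820 CPM and precursor markers to between 6382 and 9275 CPM. Committed precursor markers summed to between 4323 and 7581 CPM. Nuclei with UMIs of all 8 members made up 0% to 9.43% of the class by library. Whether it mixes stages was not tested. Each ratio here is the CPM in committed precursors as a percent of that in oligodendrocytes of the same library, so gene length cancels. Cnp stood at 138%, 172%, 122% and 87.4%. Mag was at 77.1%, 133%, 93.4% and 92.6%, and Mbp at 93.3%, 82.0%, 97.8% and 112%. For these 3 genes the values scattered around the oligodendrocyte level. Committed precursors of Control 2 stood apart, with neuron markers summing to 1542 CPM against 578 to 807 in the other libraries, astrocyte markers to 1588 against 777 to 850, and committed precursor markers to 4323 against 6902 to 7581. Without that library Mag was below the oligodendrocyte level in every library, and Cnp was above it in 2 of 3. The part of these markers in the ratios was not tested. These means did not come from all nuclei alike: thinned to 1000 UMIs, 52.8% to 68.0% of committed precursors had a UMI of Mbp (80.0% to 89.4% before thinning), and 18% to 37.7% had none of the 8 genes, against at most 0.777% of oligodendrocytes. Cldn11 was lower and close to constant, at 78.9% ± 1.97 (SD, n = 4 libraries).

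The other 4 members were lower. Mobp was at 33.2%, 44.7%, 52.2% and 44.6%, below the oligodendrocyte level in every library. Opalin was at 16.1%, 22.4%, 40.3% and 15.7%, and Mog at 17.7%, 17.7%, 28.3% and 14.1%. For Opalin and Mog, Kat6a-cKO 1 was the high library. Mal was the lowest, at 4.23%, 4.33%, 10.8% and 11.0%. Its counts were 14, 17, 25 and 23 UMIs, or 28.7 (exact Poisson 95% interval 15.7 to 48.2), 32.3 (18.8 to 51.7), 51.2 (33.2 to 75.6) and 68.2 (43.2 to 102) CPM. The intervals, which cover counting error only, overlap between the groups for Mal. Relative to free RNA, the committed precursors held Mal at 7.93% to 22.7% of its CPM there.

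The committed precursors were taken from a finer clustering, chosen after the data were seen. At the coarser clustering used for the other classes, their cluster also held 60 nuclei with oligodendrocyte and dentate granule markers together, 23, 32, 4 and 1 of them by library, with a median of 14986 UMIs. With those nuclei included the order was nearly the same, with Cnp at 97.8%, Mbp at 78.4%, Mag at 77.1%, Cldn11 at 63.2%, Mobp at 38.1%, Opalin at 23.5%, Mog at 20.8% and Mal at 11.2%. Each library held only 47 to 61 committed precursors, which limits these ratios. The clusters come from the same nuclei, so no test was made between them.

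**Figure D2:**
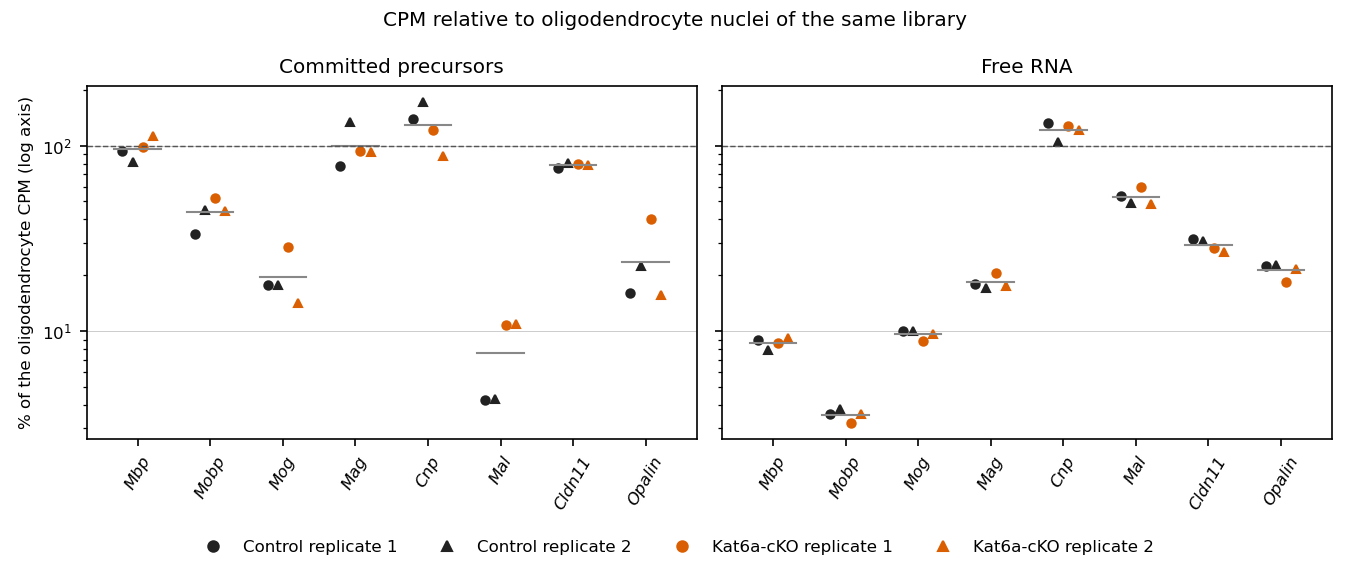
CPM in committed precursors (left) and in free RNA (right) as a percent of the CPM in oligodendrocytes of the same library (log axis), with 1 point per library, the mean as a grey bar and 100% as a dashed line. In committed precursors Mbp, Mag and Cnp lie around the line and Mal below 11%; in free RNA Cnp lies above the line in all 4 libraries and Mobp lies lowest.

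Oligodendrocytes themselves fell into a larger group of 3168 nuclei and a smaller one of 547 (149, 114, 169 and 115) at the finer clustering. All 8 members were higher in the smaller group in each of the 4 libraries. Opalin differed most, at 516, 564, 470 and 446 CPM against 212, 218, 237 and 216 CPM, a ratio of 2.27 ± 0.29 (SD, n = 4). The ratio was 1.76 ± 0.27 for Mal, 1.71 ± 0.11 for Mobp, 1.63 ± 0.13 for Mbp, 1.53 ± 0.14 for Cldn11, 1.44 ± 0.12 for Mag, 1.41 ± 0.09 for Cnp and 1.39 ± 0.07 for Mog. Other oligodendrocyte genes, looked up after the groups were seen, differed in direction. They were not left out of the clustering, so their ratios need not be independent of the grouping. Cldn14, a claudin gene, was 1.79 ± 0.46 times as high in the smaller group and St18, a zinc finger factor gene, 1.19 ± 0.02 times, and Ptgds was at 1.10 ± 0.17. Prr5l was at 0.50 ± 0.06 and Il33 at 0.40 ± 0.04. Klk6 was under 1 CPM in both groups and is not compared. Of the rest, 3 were farthest below: Hapln2, the gene of a protein of the nodal matrix, was 0.09 ± 0.03 times as high, Anln 0.16 ± 0.04 and Apod, a lipid carrier gene, 0.28 ± 0.04. The smaller group was also deeper, with a median of 4785 UMIs against 3221, and the part of depth in these ratios was not tested. Gm38642, the transcript that overlaps Mobp, was left in the clustering and led the smaller group, so the ratio of Mobp is not independent of the grouping.

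Oligodendrocyte precursors held the members at low levels. Mbp was 45.3, 40.8, 36.1 and 42.2 CPM, or 1.44% to 1.95% of its oligodendrocyte level. Mobp was 10.0, 10.6, 7.11 and 11.0 CPM, or 0.223% to 0.362%. Set against free RNA, 7 of the 8 members stood at 8.66% to 13.8% of the free RNA CPM on average, and Mbp at 20.4% ± 2.66 (SD, n = 4). The share of free RNA in precursors, estimated from markers of other cell types, was 9.14%, 11.0%, 10.5% and 9.30%. This estimate is the lower quartile of those markers, so most of them lie above it by construction, and a gene above it is not thereby set apart. The averages of the 7 members lay near that share, and Mbp (20.5%, 23.0%, 16.7% and 21.3%) and Mag (13.6%, 13.7%, 11.8% and 11.6%) lay above it in all 4 libraries. In astrocytes, a class that makes no myelin, the 8 members were at 10.9% to 15.03% of free RNA, Mbp at 12.8% ± 3.78. In microglia, which make no myelin either, Mbp was at 28.0% ± 7.24 of free RNA, Mag at 25.2% ± 6.68 and Mog at 23.4% (20.9% to 25.8% over the libraries), and the other 5 members at 17.4% to 22.6%. The estimated free RNA share there was 15.8% to 19.9%, and Mbp and Mog lay above the share of their own library in all 4.

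Free RNA, which in a preparation of nuclei can carry RNA of the cytoplasm, held the members in proportions unlike those of oligodendrocyte nuclei. Cnp was 256, 250, 191 and 217 CPM in free RNA, more than in oligodendrocyte nuclei, at 133%, 104%, 128% and 121% of their level. Mal was at 52.6% ± 5.37 (SD, n = 4) of its level in oligodendrocyte nuclei, Cldn11 at 29.2% ± 2.11, Opalin at 21.2% ± 1.96 and Mag at 18.3% ± 1.62. Mog was at 9.59% ± 0.54, Mbp at 8.65% ± 0.53 and Mobp at 3.53% ± 0.25. The ranges over libraries of Cnp, Mal, Cldn11 and Mobp overlapped with no other member, while those of Mbp (7.92% to 9.13%) and Mog (8.82% to 9.98%) overlapped, as did those of Opalin and Mag. Mbp in free RNA was 221, 177, 216 and 198 CPM, and Mobp 103, 111, 101 and 109 CPM. The spread from Mobp to Cnp was more than the spread between libraries for any 1 gene.

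In neurons, which do not make myelin, Mbp stood apart from the other members. The gene lies on the plus strand of chromosome 18 (82475146 to 82585637) and overlaps the pseudogene Rpl21-ps8 of the minus strand, which its counts may include. Mbp was 65.2, 70.0, 70.0 and 69.0 CPM in dentate granule neurons, 30.8, 31.7, 32.8 and 32.6 CPM in CA1 neurons, 18.8, 24.5, 21.2 and 19.9 CPM in CA3 neurons and 16.8, 16.4, 15.8 and 13.0 CPM in inhibitory neurons. The order dentate granule, CA1, CA3, inhibitory held in each of the 4 libraries, and the ranges of the 4 classes did not overlap. Relative to free RNA, Mbp in dentate granule neurons was at 29.5%, 39.5%, 32.4% and 34.8%. The other 7 members were there at 3.87% to 4.77% on average. The share of free RNA estimated from other markers was 4.05% to 5.57% in these nuclei. Mbp was above that share in all 4 libraries, and the other members lay near it. Markers spread widely here: the 23 oligodendrocyte markers with enough counts had a median of 6.83% to 9.18% of free RNA by library, and the highest of them stood at 537% to 706%. The source of these Mbp counts was not tested.

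In CA1 neurons Mbp was at 15.9% ± 1.68 (SD, n = 4) of free RNA and the other members at 2.73% to 3.43%. In CA3 neurons Mbp was at 10.6% ± 2.29, Mobp at 5.26% ± 0.90 and the other 6 at 1.82% to 2.64%. Thinned to 1000 UMIs, 5.94% to 6.58% of dentate granule nuclei and 2.09% to 2.39% of CA3 nuclei had a UMI of Mbp (50.7% to 53.3% and 32.1% to 39.4% before thinning). Among dentate granule clusters, Mbp reached 42.4% ± 5.63 of free RNA in 1 cluster, of 3061 nuclei, led by Gm6999, Sv2c and Trpc6. The other main dentate granule clusters were taken up unevenly by the groups. One led by Igfbp5, Npnt and Dsp held 1337, 1432, 330 and 575 nuclei, with Mbp at 29.9% ± 4.33 of free RNA, and one led by Slc4a4 and Il1r1 held 1345, 991, 1983 and 1537, with Mbp at 32.3% ± 3.44. An unnamed cluster of 409 nuclei led by Lrp2 and Amigo2, in which too few markers of any type were raised for a name, was at 3.37% ± 0.89, within the 1.51% (Cldn11) to 6.48% (Mobp) of the other 7 members there. Mbp counts in neurons thus differed between classes by more than counting error, at 2219 to 2840 UMIs per library in dentate granule neurons alone.

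Mog stood out in a different place. In inhibitory neurons it was 6.23, 7.41, 5.98 and 6.75 CPM (68 to 82 UMIs per library), 8.99%, 11.9%, 10.4% and 11.6% of free RNA. Mbp was there at 7.69% ± 1.14 and Mobp at 6.25% ± 1.30, and the other 5 members were at 3.13% to 4.66%, below the estimated free RNA share of 4.90% to 7.15%. In an unnamed cluster of 1321 nuclei (376, 285, 397 and 263) led by Sema3c, Adamts18, Igfbpl1 and Sox11, Mog was 21.6, 22.7, 21.4 and 26.9 CPM, or 37.8% ± 6.16 of free RNA. Mbp was there at 23.1% ± 3.72, and the other 6 members lay between 7.05% and 8.94%. In both places Mog was higher than Mbp relative to free RNA, and in dentate granule, CA1 and CA3 neurons it was lower. The order did not hold in 1 inhibitory cluster, of 483 nuclei, where Mog was at 8.56% ± 3.76, Mbp at 10.3% ± 2.93 and Mobp at 10.5% ± 8.27. Counts of Mog may include Gm22388, which lies inside it on the other strand, and the part of that gene was not tested. These 2 places were picked out after their values were seen.

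**Figure D3:**
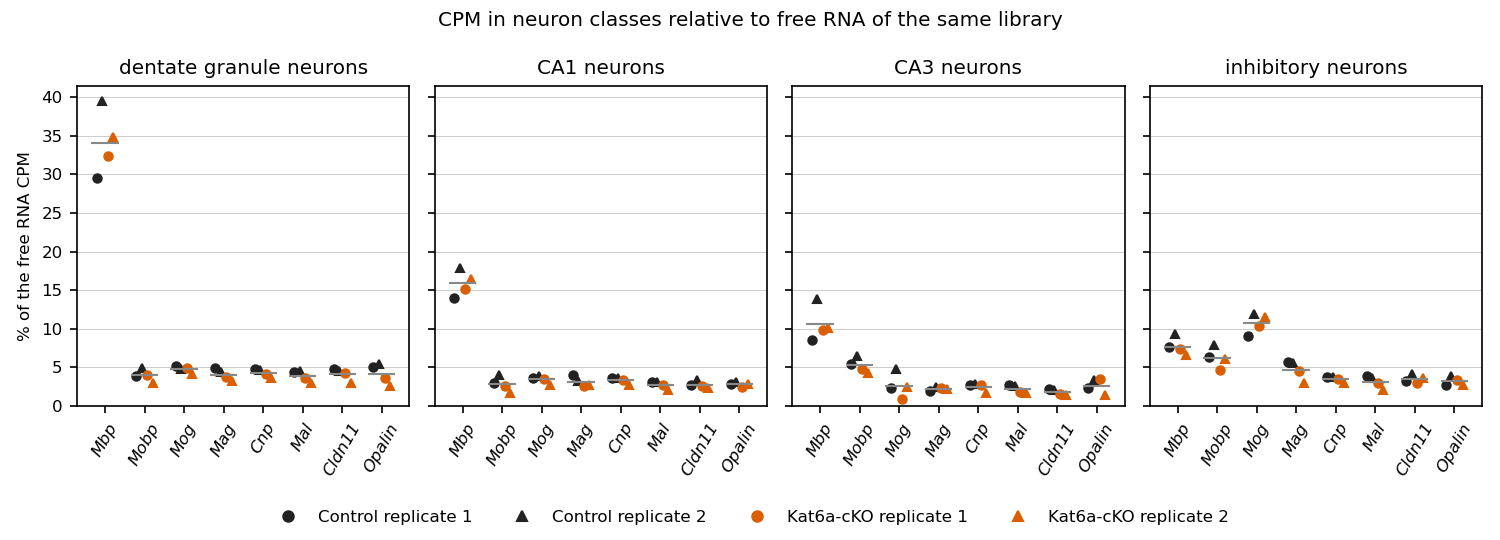
CPM in 4 neuron classes as a percent of the CPM in free RNA of the same library (linear axis from 0), 1 point per library and the mean as a grey bar. Mbp lies far above the other genes in dentate granule and CA1 neurons, at 29.5% to 39.5% in the former, and Mog is the highest in inhibitory neurons.

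Kat6a-cKO was compared with Control in oligodendrocytes, precursors, neurons and free RNA. No member changed in oligodendrocytes by edgeR's quasi-likelihood test on UMI sums per library, with Benjamini-Hochberg adjustment over all genes tested. Of 11690 genes tested there 1 was called, which is 0.00855%, and DESeq2 called 4. That gene was Rpl34, a ribosomal protein gene with near-identical copies elsewhere in the genome (-1.37 ± 0.16, adjusted p = 0.00298), named here after its value was seen. Without adjustment 894 genes had p under 0.05, 3 members among them: Cnp (log2 fold change -0.38 ± 0.12, SE, adjusted p = 0.374), Mal (-0.37 ± 0.12, adjusted p = 0.379) and Mag (-0.27 ± 0.11, adjusted p = 0.589). The other 5 members lay between -0.09 (Cldn11) and 0.11 (Mobp), with Mbp at 0.00 ± 0.12. Over the 8 members the median was -0.07, beside 0.00 over all genes tested. In CPM, 3 members had Kat6a-cKO values under the lower Control value, beside 19.5% of all genes with at least 40 counts. Mobp was above the higher Control value, and the share of all genes lying above was not computed. Cnp, Mal and Mag kept a negative value in all 11 alternatives, with adjusted p from 0.00316 to 1.00 for Cnp, 6.92e-05 to 1.00 for Mal and 0.0272 to 1.00 for Mag. They were called with the replicate number as a block (adjusted p = 0.00316, 6.92e-05 and 0.0272). That setting called 306 of 11690 genes, 238 of them lower.

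Oligodendrocytes made up 9.51%, 8.25%, 9.76% and 7.96% of nuclei. The mean was 8.88% ± 0.90 against 8.86% ± 1.27 (SD, n = 2 each; exact permutation test, two-sided, p = 1), where 2 against 2 cannot give a p under 1 in 3. The groups overlapped. Low-count barcodes that clustered apart (660, 954, 128 and 158) are in the denominator, and without them the means were 9.61% and 8.99% (exact permutation p = 0.667).

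In precursors 26 of 9900 genes were called, 0.263% (23 lower, 0.232%), and none of the 7 members tested. Cnp was called in 1 of 11 alternatives, with doublets kept (adjusted p = 0.0467). In that setting 13 of 11925 genes were called, 11 of them lower. Committed precursors, which held more Cnp, join the class there beside the doublets, and the part of either in this call was not tested. Opalin did not pass the filter on low counts. All 7 had negative values, from -0.13 ± 0.23 (Mbp) to -0.78 ± 0.36 (Cldn11), with a median of -0.36 beside 0.00 over all genes tested. At these levels, 4.59 to 45.3 CPM per library for the tested members, standard errors reached 0.47. Cldn11, the only tested member with p under 0.05, was 21.3, 16.3, 13.7 and 6.42 CPM (adjusted p = 0.603). With the estimated free RNA taken away, only 2 members had counts enough to be tested.

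In the 4 named neuron classes summed, 45 of 20775 genes were called, 0.217% (41 lower, 0.197%), and none of the 8 members. Unnamed clusters were left out of this sum, and neurons in them were not tested. Yet 7 of the 8 had p under 0.05 before adjustment, as did 2136 genes in all, and all 8 values were negative, with a median of -0.59 beside 0.00. Mal was 13.3, 13.0, 8.27 and 6.91 CPM (log2 fold change -0.78 ± 0.11, adjusted p = 0.0523). Cnp was 10.2, 9.65, 6.77 and 6.17 CPM (-0.61 ± 0.11, adjusted p = 0.0821). For these 7 members the Kat6a-cKO values lay under the lower Control value, as for 22.9% of genes with at least 40 counts. Mbp was 42.2, 43.5, 42.6 and 40.0 CPM, with overlapping groups (-0.04 ± 0.07, adjusted p = 0.889). The sum took in inhibitory neurons, while NEX-cre is active in excitatory ones. Dentate granule neurons gave 3467, 3230, 3066 and 2828 of its nuclei and CA3 neurons 587, 739, 767 and 844. The part of this mix of classes in the values was not tested. Alternatives also called more of the 20775 genes: 400 with DESeq2 (330 lower) and 520 with the replicate block (413 lower). Mal was called in 7 of its 10 alternatives, Cnp in 5 and Cldn11 in 3, with adjusted p over them of 5.95e-06 to 0.0683, 0.00177 to 0.101 and 0.0239 to 0.194.

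The 7 members with lower values in neurons are those that lay near the free RNA share there, and Mbp is the one above it. The estimated share of free RNA in neurons was itself lower in Kat6a-cKO, at 5.31%, 5.597%, 5.01% and 4.24%. Each of the 7 members lay under the share of its own library, at 2.30% to 5.33% of free RNA. Taking that share from the counts therefore left them no counts by construction, and only Mbp could still be tested, at -0.03. This step is no test of the 7 values, and the part of free RNA in them was not tested.

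Free RNA showed lower Cnp, Mal and Cldn11 in Kat6a-cKO. Here 1637 of 19093 genes were called, 8.57%, of which 753 were lower, or 3.94% of genes tested. Mal was 362, 364, 284 and 301 CPM (log2 fold change -0.42 ± 0.10, adjusted p = 0.0424). Cnp was 256, 250, 191 and 217 CPM (-0.41 ± 0.11, adjusted p = 0.0446). Cldn11 was 147, 133, 115 and 116 CPM (-0.38 ± 0.09, adjusted p = 0.0424). Both Kat6a-cKO libraries were below both Control libraries for 6 of the 8 members, these 3 among them, as for 20.5% of genes with at least 40 counts. The other 5 members were not called, at -0.32 ± 0.09 for Opalin (adjusted p = 0.0546), -0.29 for Mog, -0.27 for Mag, -0.13 for Mobp and -0.05 ± 0.12 for Mbp. The median of the 8 was -0.30, beside -0.01 over all genes tested. Median UMIs of these barcodes were 512, 547, 411 and 385, and the part of this difference in the 3 calls was not tested. The values stayed negative in all 8 alternatives, from -0.45 to -0.35 for Mal, -0.50 to -0.30 for Cnp and -0.44 to -0.33 for Cldn11, while the calls changed with the libraries used. None of the 3 was called without Control 2 (adjusted p = 0.149 for Mal, 0.116 for Cnp and 0.0686 for Cldn11) or without Kat6a-cKO 1 (0.191, 0.248 and 0.145). Without Control 1 only Mal was called (0.0455, against 0.0519 for Cnp and 0.127 for Cldn11), and with barcodes of 100 to 500 UMIs Mal was not (0.0565). Other alternatives added calls. Under the replicate block 4972 of 19093 genes were called, 2933 of them lower. From barcodes of 100 to 500 UMIs 1429 of 17694 genes were called, 717 of them lower. With the replicate number as a block 6 members were lower, the 3 and Opalin, Mog and Mag (adjusted p = 0.00537, 0.0121 and 0.0138), and Opalin was also called without Kat6a-cKO 2 (0.0384) and with barcodes of 100 to 500 UMIs (0.0485).

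**Figure D4:**
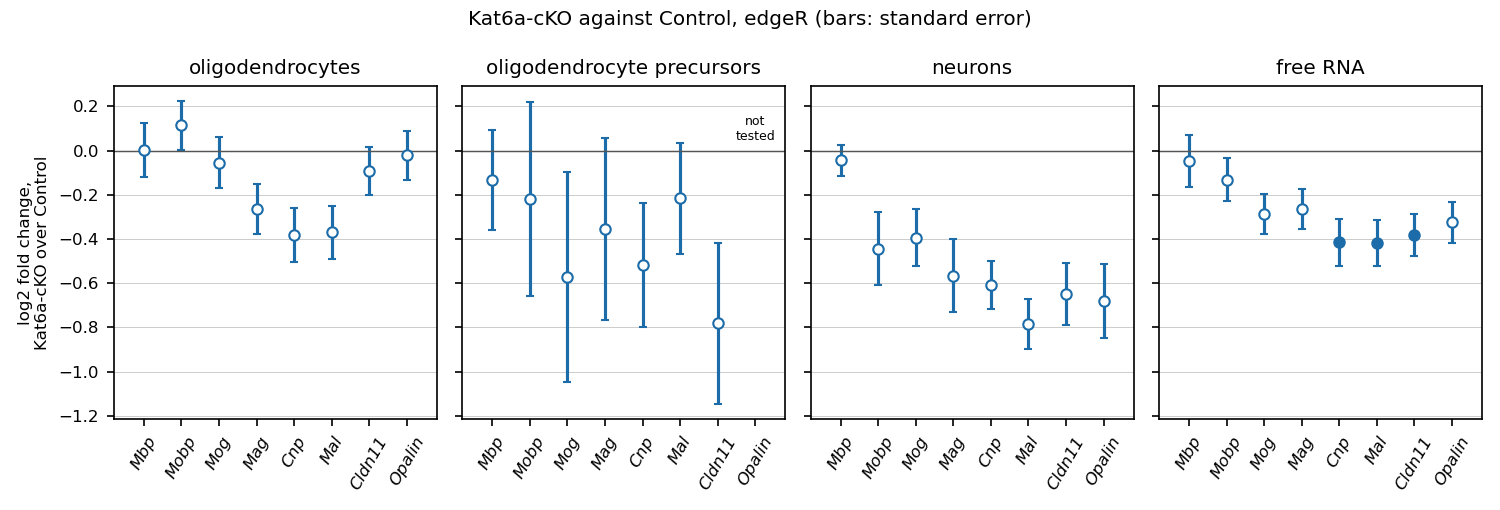
Log2 fold change of Kat6a-cKO over Control from edgeR for the 8 members in oligodendrocytes, precursors, neurons and free RNA, with bars for 1 standard error and filled points for adjusted p under 0.05. Filled points appear only for Cnp, Mal and Cldn11 in free RNA, and Mbp is close to 0 in oligodendrocytes, neurons and free RNA.

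Of the 45 other myelin-related genes (structural, lipid synthesis, transcription factors, adhesion and signalling), 43 were tested in oligodendrocytes, 35 in precursors and 42 in neurons, and none was called in any of the 3. With the replicate block, 238 of all 11690 genes tested were lower in oligodendrocytes. In neurons 330 of 20775 were lower with DESeq2 and 413 with the block. Of the list, alternatives called up to 3 as lower in oligodendrocytes (with the block). They called 1 in precursors and 4 in neurons (with DESeq2 or the block), and none as higher. In free RNA 44 were tested and 2 were lower, a share near the 3.94% of all genes: Ermn, the gene of a cytoskeletal protein of myelinating oligodendrocytes (-0.60 ± 0.14, adjusted p = 0.0383), and Nkx6-2, a homeobox factor of the lineage (-0.45 ± 0.12, adjusted p = 0.0477). Neither was called without Kat6a-cKO 1 (adjusted p = 0.105 and 0.158), Ermn was not called with barcodes of 100 to 500 UMIs (0.0521), and Nkx6-2 was also not called without Control 2 (0.268). Over the alternatives 0 to 6 genes of the list were lower and 0 to 2 higher in free RNA, with 6 lower and 2 higher under the block. Over all 19093 genes tested in free RNA under the block, 2933 were lower and 2039 higher. The median of the list in free RNA was -0.08 and that in oligodendrocytes -0.04.

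Mean levels of 6232 other genes over the 9 nucleus classes were set beside the mean of the 8 members. These genes had at least 50 CPM in a class, and the other myelin-related genes and all cell type markers were left out. Those that followed the members most closely were Atl3 (Pearson r = 0.990), Tprn (0.984), Nfe2l3 (0.982), Plekhg3 (0.981) and Rnf220 (0.979). These are descriptions over 9 classes that share libraries, on log2(CPM + 5). Rnf220 was 1646 CPM in oligodendrocytes and 1062 CPM in committed precursors, and at most 43.3 CPM in the other classes. In the same order Tprn was 95.8, 49.4 and at most 3.35 CPM, and Plekhg3 145, 75.2 and at most 4.30 CPM. Atl3 and Nfe2l3 were less confined to the 2 classes. Atl3 was 180, 140 and up to 86.6 CPM, and Nfe2l3 63.5, 49.5 and up to 19.5 CPM. Among the members, Mag and Cldn11 were the most alike over the classes (r = 0.997) and Mbp and Mal the least (r = 0.751).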

How the data were processed

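The authors deposited raw UMI counts per gene and barcode for all observed barcodes; per the submitters' processing notes the build was mm10 and Seurat 4.0.1 was used. Aligner, annotation release, UMI handling and counting strand are not given in the sources used here. The members, the gene lists and the markers were chosen with earlier results of these data known. Barcodes of at least 1000 UMIs were kept, doublets marked per library with Scrublet (expected rate 0.06), and nuclei clustered with scanpy 1.11.5 (2000 variable genes, 30 components, 15 neighbours, Leiden resolution 1). The 8 members, the 45 related genes and mitochondrial genes were left out of clustering. A cluster was named if at least 60% and 3 or more of a type's markers were 2-fold raised; these thresholds were set after the data were seen. Committed precursors came from resolution 2. Counts were summed per library and class and tested with edgeR 4.0.16 (TMM, filterByExpr, quasi-likelihood, adjusted p under 0.05), which was tested on simulated data; DESeq2 1.42.0 was an alternative. Standard errors are the log2 fold change over the root of the F statistic. CPM divide by the class total. The free RNA share is the 25th percentile, set after the data were seen, of class over free RNA CPM for markers of other cell types with at least 100 free counts. Named genes were the 8 members, related genes past the threshold and the 5 genes most alike; 1 other gene is not reported here. Kat6a was added as the targeted gene, and Rpl34, Hapln2, Anln, Apod and the leading genes of clusters were named after their values were seen. Intervals cover counting error only. Shared replicate numbers are not said to pair libraries.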

Additional observations from a re-analysis of the deposited data

Results flagged for a closer look

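For some members both Kat6a-cKO libraries lay above both Control libraries in one class and below them in another. Groups of 2 libraries often separate in this way: 19.5% to 22.9% of genes with at least 40 counts lay below in oligodendrocytes, precursors, neurons or free RNA. That share was not computed for genes lying above Control, nor in the other classes named here. The differences between classes were not tested. Of the values here, those in oligodendrocytes, precursors, neurons and free RNA were also tested against Control, and only Mal in free RNA was called. Neurons as a whole include the neuron classes listed beside them. As log2 ratios of mean CPM, Mobp was 0.10 in oligodendrocytes and 0.42 in committed precursors, against -0.46 in neurons, -0.78 in CA1 neurons and -0.41 in CA3 neurons. Mal was 0.97 in committed precursors, on 14 to 25 UMIs per library, and negative in the other 8 classes, from -0.24 in precursors to -0.92 in CA3 neurons. The direction in committed precursors was not kept at the coarser clustering, which adds 60 nuclei of mixed markers (23, 32, 4 and 1). Mal was there at 19.9% to 22.7% of free RNA over the libraries. Free RNA itself held less Mal in Kat6a-cKO, so these percents correspond to less Mal in Kat6a-cKO than in Control, the reverse of the finer clustering. The added nuclei, most of them from Control, held Mal at 131.8, 131.5, 99.1 and 64.5 CPM. At the finer clustering committed precursors held it at 28.7, 32.3, 51.2 and 68.2 CPM. The part of the added nuclei in the reversal was not tested. Mbp was 0.24 in committed precursors and 0.065 in CA1 neurons, against -0.20 in inhibitory neurons. In committed precursors Mbp was 2310, 1835, 2451 and 2432 CPM. The low value there is that of Control 2, whose committed precursors stood apart by their markers.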

How the results depend on the processing

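Of 321 alternative log2 fold changes of the members, Ermn and Nkx6-2, 261 kept their direction and their side of the threshold, 25 passed it anew and 13 lost it. Those that changed sign were small: Mbp in oligodendrocytes (-0.0057 with no filter on low counts, -3.25e-05 with the replicate block, -0.048 with free RNA subtracted, -0.13 to 0.13 leaving out a library), Mog there (0.014 with doublets kept, 0.071 at Leiden resolution 2, -0.17 to 0.073 leaving out a library), Opalin there (0.044, 0.11, -0.12 to 0.061), Cldn11 there (0.044 at resolution 2, -0.19 to 0.014), Mobp, Mog and Mal in precursors (0.11, 0.15 and 0.011 with doublets kept, Mobp -0.48 to 0.11 leaving out a library), and Mbp in neurons (-0.10 to 0.013) and free RNA (0.0057 at 100 to 500 UMIs, -0.18 to 0.099). The cause was not tested. Genes called in oligodendrocytes numbered 4 with DESeq2, 123 with no filter, 306 with the replicate block, 410 at resolution 2, where the 60 nuclei of mixed markers join the class, 0 with free RNA subtracted (280 genes with p under 0.05) and 2 to 144 leaving out a library. In precursors they numbered 0 with DESeq2 (138 with p under 0.05), 46 with the block, 13 with doublets kept, where committed precursors join the class, 14 with free RNA subtracted and 16 to 36 leaving out a library. In neurons they numbered 400 with DESeq2, 520 with the block, 1 with free RNA subtracted and 159 to 801 leaving out a library; in free RNA, 2627 with no filter, 4972 with the block and 687 to 3566 leaving out a library. Same-numbered libraries deviated together weakly (correlation 0.03 to 0.12), and the labels do not say that numbers pair them. The difference in the share of oligodendrocytes was -0.02 percentage points and -0.92 to 0.88 leaving out a library. All 80 ratios to free RNA in neurons moved by less than 1 SD at 2000 UMIs or with free RNA from 100 to 500 UMIs. Of 88 alternative levels 85 moved by less than 1 SD; the other 3 were Mbp (1833 CPM), Mal (69.9 CPM) and Cldn11 (274 CPM) in committed precursors at resolution 1. With 2 libraries per group, and 47 to 61 committed precursors in each, small changes were not detectable.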
